A study of Homo sapiens with 5 samples.

Results

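Chromosomes 4, 13 and 18 are poor in genes, and few of the G-quadruplex (G4) regions of C4-2 cells lay on them. Of the 6835 recurrent G4 regions in the peak lists, 423 were on these 3 chromosomes, with 197 on chromosome 4, 118 on chromosome 13 and 108 on chromosome 18. Peaks of 4 BG4 ChIP-seq replicates were merged where they overlapped by at least 1 bp, and those supported by 2 or more replicates are the recurrent regions. The choice of these chromosomes used no peak value. Chromosomes 17 and 19, with 462 and 488 recurrent regions, served as the comparison.

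G4s are four-stranded structures that guanine-rich DNA can fold into, with guanines paired in stacked planar tetrads. They are known to be frequent at the promoters of active genes, and such promoters are often GC-rich. BG4 is an antibody fragment that binds folded G4s, so ChIP-seq with BG4 marks places in chromatin where the structure was present when the cells were fixed. C4-2 is a long-used line of human prostate cancer cells. All 4 replicates are BG4 immunoprecipitations of C4-2 chromatin, cross-linked with formaldehyde and sonicated. The labels name no treatment, and no other condition was compared. The methods call the replicates biological, but nothing states that they came from separate cultures, so the spread between them may be in part technical. An input library belongs to the series and was not analysed here.

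The lists of replicates 1 to 4 held 8036, 6192, 6805 and 4427 peaks, of which 473, 372, 418 and 282 were on chromosomes 4, 13 and 18. Without read counts in them, library depth is unknown, and replicate 4, with the fewest peaks, stood apart in several values given below. Positions are on GRCh37.

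Promoter sequences of genes whose windows held a member show what a G4-capable stretch on these chromosomes looks like. The windows are those of 4000 bp in the study's own gene list, which was drawn from these libraries. Here they named genes, served as landmarks and were counted for overlap with members. The paper describes the listed G4s as specific to prostate cancer, after a comparison with HepG2 and K562 profiles. The list therefore does not hold every gene, and a region outside all windows can still lie at a gene. A G4 motif was defined as at least 4 runs of 3 or more G separated by 1 to 7 bases, on either strand, in the 250 bases before and 50 after a RefSeq gene start. OSBPL1A, FHDC1 and NBEA had members with a peak in all 4 replicates, and LIMCH1 and ZIC2 had members with a peak in 3. For a gene with several RefSeq starts, a start with a motif is shown. Other starts of OSBPL1A, NBEA and LIMCH1 had no motif. The stretches are from RefSeq on GRCh38.p14, at chr18:24397916-24397971 (minus strand), chr4:152936153-152936208, chr13:34942139-34942214, chr4:41360703-41360757 and chr13:99981664-99981756 (plus strand), written along the gene 5′ to 3′ with 15 flanking bases on each side and the motif in capitals. Capital C runs mean that the G runs are on the opposite strand.
OSBPL1A: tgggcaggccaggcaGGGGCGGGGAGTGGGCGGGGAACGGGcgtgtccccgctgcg
FHDC1: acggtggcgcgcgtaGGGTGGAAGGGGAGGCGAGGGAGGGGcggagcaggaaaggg
NBEA: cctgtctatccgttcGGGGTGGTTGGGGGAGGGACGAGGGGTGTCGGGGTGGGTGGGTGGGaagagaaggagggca
LIMCH1: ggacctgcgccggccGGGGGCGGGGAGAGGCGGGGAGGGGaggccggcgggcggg
ZIC2: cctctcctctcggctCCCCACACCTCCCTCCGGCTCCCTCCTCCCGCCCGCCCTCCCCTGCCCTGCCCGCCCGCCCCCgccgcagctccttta

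The motif of NBEA ran over 46 bases and that of ZIC2 over 63 bases, against 26 bases in OSBPL1A and FHDC1 and 25 in LIMCH1. Of the RefSeq genes with a promoter sequence, 35% of the 1190 protein-coding genes on chromosomes 4, 13 and 18 had a motif, compared with 38.2% of 2009 on chromosomes 17 and 19 and 36.3% of 15860 over all chromosomes of the table. Over genes of every kind the shares were 21.9%, 34.7% and 27.9%. A motif is a match of letters and not a measured structure. The promoters of FECH, STIM2, PTPN13, MAPK10, TIFA and ALPK1, whose windows also held members, had no such match in this stretch. MAPK10 and PTPN13 share a region, but on GRCh38 the promoters read for MAPK10 lay between 86354595 and 86371117 and that of PTPN13 at 86594065-86594364. ALPK1 and TIFA likewise share a region, with promoters read at 112297119-112297418 and 112285855-112286154. The promoters read for each pair therefore cannot all lie at the shared region. TCF4, with a member, had one at some of its starts, which were not shown to be the start at the member. Genes with a peak of 1 replicate only had motifs too: GATA6, NKX6-1, SMAD9, GAS6, SOCS6, RASA3, FAT1, ANK2, DTNA, ARHGAP10 and DCLK2. In RASA3, FAT1, ANK2 and DTNA other starts had none, so the motif may lie at a start away from the peak. MAML3, LCP1, HERC5 and SH3RF1, likewise with 1 replicate, had none. Whether motifs are more frequent at members was not tested. Whether a GRCh38 start is the start at the centre of the GRCh37 window was not established.

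The members were thinly spread. Peaks of replicates 1 to 4 on chromosomes 4, 13 and 18 numbered 1.23, 0.969, 1.09 and 0.734 per Mb, and those on chromosomes 17 and 19 numbered 7.93, 6.17, 6.66 and 4.53 per Mb. Replicate 4 was lowest in both sets, and the sets did not overlap. Within a replicate, chromosomes 17 and 19 were 6.44, 6.37, 6.12 and 6.17 times as dense, a mean ratio of 6.27 ± 0.155 (SD, n = 4; exact two-sided sign-flip permutation test, p = 0.125, which is the smallest that 4 replicates allow). The adjusted p was 0.250 by Benjamini-Hochberg over 6 tests. With 4 replicates no test of this kind can go below 0.05, whatever the size of the difference. Recurrent regions numbered 1.03 per Mb on chromosome 4, 1.03 on chromosome 13 and 1.38 on chromosome 18, against 5.70 on chromosome 17, 8.26 on chromosome 19 and 2.12 over all 24 chromosomes. Counted from the lowest, chromosomes 13, 4 and 18 ranked 3, 4 and 7 of 24. Length was taken to the end of the last peak, and chromosome 13 had no member before position 20207421, so over the span from first to last member its density was 1.24 per Mb.

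Set against genes, the sparsity was much smaller, and the 3 chromosomes parted from each other. Chromosomes 4, 13 and 18 held 4.05, 2.96 and 3.36 RefSeq protein-coding genes per Mb, ranks 4, 2 and 3 from the lowest of 24, with chromosome Y lowest, while chromosomes 17 and 19 held 14 and 24.8. The label gene-poor therefore fits. Per 100 protein-coding genes, there were 25.6 recurrent regions on chromosome 4, 34.9 on chromosome 13 and 40.0 on chromosome 18, compared with 39.5 on chromosome 17, 33.6 on chromosome 19 and 32.7 over all chromosomes. On this scale chromosome 18 ranked 22 of 24 from the lowest, level with chromosome 17, chromosome 13 ranked 14, and chromosome 4 ranked 4.

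**Figure D1:**
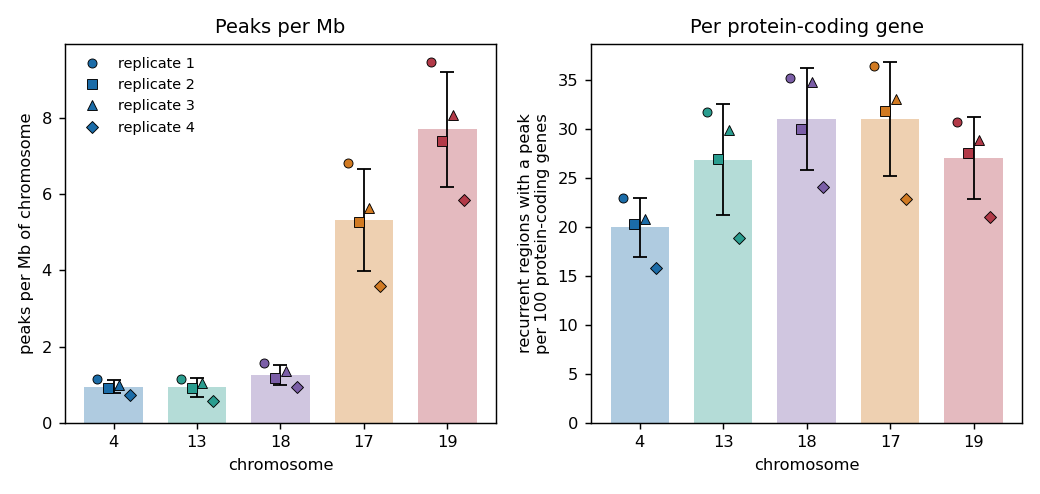
Peaks per Mb of chromosome (left) and recurrent regions with a peak per 100 RefSeq protein-coding genes (right) for each of 5 chromosomes. Symbols are the 4 replicates, bars their mean and error bars the SD; on the left all points of chromosomes 4, 13 and 18 lie below those of 17 and 19, while on the right chromosome 18 (mean 31.0) equals chromosome 17 (mean 31.0) and chromosome 4 (mean 19.9) is lowest.

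Counted within each replicate, members with a peak numbered 27.4, 23.8, 25.8 and 18.2 per 100 protein-coding genes in replicates 1 to 4, against 33.2, 29.4, 30.7 and 21.8 regions on chromosomes 17 and 19. The comparison chromosomes were higher in each of the 4 replicates, although the ranges of the sets overlap. The ratio within a replicate was 1.21, 1.24, 1.19 and 1.20, a mean of 1.21 ± 0.0202 (SD, n = 4; exact sign-flip permutation test, p = 0.125; adjusted p = 0.250). This count was added after the data had been seen. With all annotated gene starts of the RefSeq promoter table as the denominator, the mean ratio was 2.12 ± 0.0355 (SD, n = 4; exact sign-flip permutation test, p = 0.125; adjusted p = 0.250). The promoter table held 1190 protein-coding genes on chromosomes 4, 13 and 18 and 2009 on chromosomes 17 and 19, against 1378 and 2620 in the RefSeq gene table. It thus lacked a larger share of such genes on the comparison chromosomes, and the ratio of 2.12 was not corrected for this. The size of the difference from gene density depends on which genes are counted. Across the 24 chromosomes, recurrent regions per Mb and protein-coding genes per Mb had a Pearson's r of 0.959 and a Spearman's rho of 0.873, and without chromosomes 17 and 19 an r of 0.872 over 22. All points come from the same libraries, and no p-value was computed.

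**Figure D2:**
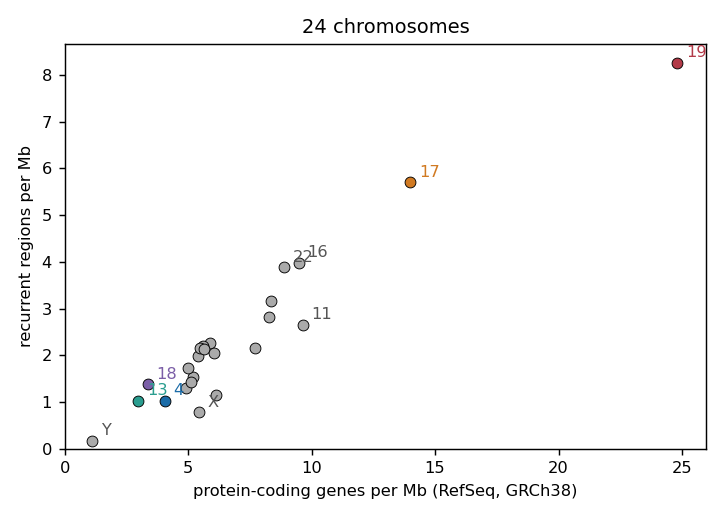
Recurrent regions per Mb against RefSeq protein-coding genes per Mb, 1 point for each of 24 chromosomes, with gene counts on GRCh38 and regions on GRCh37. Chromosomes 13, 18 and 4 sit at the low end of both axes (2.96 to 4.05 genes and 1.03 to 1.38 regions per Mb) and chromosomes 17 and 19 at the high end.

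The few regions were not evenly placed along the chromosomes. The median distance between neighbouring members was 239 kb on chromosome 4, 237 kb on chromosome 13 and 272 kb on chromosome 18, compared with 64.6 kb on chromosome 17 and 47.9 kb on chromosome 19. Stretches of at least 1 Mb without a recurrent region numbered 47, 25 and 17 on chromosomes 4, 13 and 18 and made up 81.7%, 76.4% and 67.8% of the summed distances between neighbours. On chromosomes 17 and 19 there were 11 and 9, with 28.7% and 29.8%. Stretches of at least 5 Mb numbered 8, 2 and 2 on chromosomes 4, 13 and 18 and 0 on both comparison chromosomes. Relative to their own mean, the distances on chromosomes 4 and 18 varied less than those on either comparison chromosome, and those on chromosome 13 lay between them: the coefficient of variation was 1.72, 2.28 and 1.83 on chromosomes 4, 13 and 18 and 2.13 and 2.48 on chromosomes 17 and 19.

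**Figure D3:**
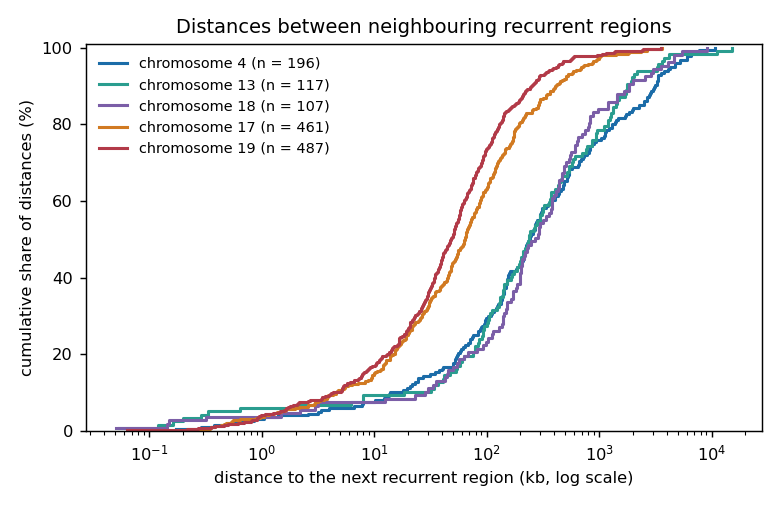
Cumulative share of the distances between neighbouring recurrent regions (kb, log scale), 1 line per chromosome. The lines cross at the shortest distances, and from about 10 kb upward those of chromosomes 4, 13 and 18 lie to the right of those of 17 and 19, with medians of 239, 237 and 272 kb against 64.6 and 47.9 kb, and only they extend beyond 5 Mb.

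On chromosome 4 the longest empty stretch was chr4:26862499-37687839 on GRCh37, of 10.8 Mb. It held no peak of any replicate and was the longest stretch in each of the 4 lists. It began 0.00320 Mb after the centre of the window of STIM2, which encodes a calcium sensor of the endoplasmic reticulum. It ended at one of the strongest members of the chromosome, with a mean fold enrichment of 26.9. Fold enrichment is the ratio of signal at the peak summit to local background, as the peak caller gave it, with 0 for a replicate without a peak.

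On chromosome 13 there were 2 stretches over 10 Mb. The longest was chr13:60970718-76056087, of 15.1 Mb, and inside it lay a single region of 1 replicate, from replicate 3, with a fold enrichment of 5.44. The next was chr13:80915672-91999597, of 11.1 Mb, with no peak of any replicate inside. In the list of replicate 3 alone the longest stretch of the chromosome was 11.9 Mb, at chr13:80055732-91999834, while the other replicates each had 15.1 Mb. On chromosome 18 the longest stretch was chr18:34409245-43546944, of 9.14 Mb and without any peak, and in replicate 4 alone it was 12.8 Mb. For comparison, the longest stretches of chromosomes 17 and 19 measured 3.63 and 3.52 Mb.

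The long stretches were set beside gene counts with the nearest protein-coding genes of the window list as landmarks. Between STIM2 and RBM47 RefSeq has 30 protein-coding genes in GRCh38 order, and 10 members lay between their windows, or 33.3 per 100 genes against 25.6 for chromosome 4 as a whole. Between FAM124A and GPR180 on chromosome 13, 17 members met 68 genes, or 25 per 100 against 34.9. Between DTNA and KATNAL2 on chromosome 18, 7 members met 33 genes, or 21.2 per 100 against 40.0. The stretch on chromosome 4 therefore lay in a segment with no fewer members per gene than its chromosome, and those on chromosomes 13 and 18 lay in segments with fewer. All members counted lay beside the empty stretches, since the stretches hold none. Genes inside the stretches were not counted apart from their flanks, so members per gene describe the whole segments. The counts are small and were not tested.

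Members were most crowded near an end of chromosomes 4 and 13. Of the 5 Mb intervals of chromosome 4 the fullest was the first, with 28 members, and 4 of 39 intervals held none. On chromosome 13 the fullest was that from 110 to 115 Mb, with 24 members, and 3 of 20 intervals from the first peak on held none. On chromosome 18 it was that from 45 to 50 Mb, with 14 members, and 1 of 16 held none. No interval of chromosome 17 or 19 was empty. The 3 fullest intervals held 28.9%, 41.5% and 35.2% of the members of chromosomes 4, 13 and 18, and 34.4% and 45.3% of the regions of chromosomes 17 and 19.

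Within 1 Mb, chromosome 4 reached 11 members in 2 places of different kinds. At 1 to 2 Mb, mean fold enrichment ran from 2.91 to 16.1, and at 49 to 50 Mb from 1.25 to 2.93. The fullest megabase of chromosome 13, from 50 to 51 Mb, held 9 members, 6 with a peak in all 4 replicates, in or near the windows of AL136218.1, RCBTB1, TRIM13 and MIR3613. That of chromosome 18, its first, held 7 members, 5 of them in all 4 replicates. Of all members, 62 (14.7%, exact 95% binomial interval 11.4 to 18.4%) had another recurrent region within 10 kb, compared with 253 (26.6%, 23.8 to 29.6%) on chromosomes 17 and 19 and 18.9% of all recurrent regions. The intervals cover counting error only and do not overlap. They treat regions as independent, although close regions come in pairs or groups, so they may be too narrow. The shares were not adjusted for the density of regions, which differs between the sets.

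Although few, the members differed little in strength from the regions of chromosomes 17 and 19. The median fold enrichment of their peaks was 8.51, 8, 8.31 and 7.27 in replicates 1 to 4, against 8.39, 7.98, 8.16 and 7.38 on chromosomes 17 and 19. Members were higher in 3 of 4 replicates, and the mean difference was 0.0459 ± 0.120 (SD, n = 4; exact sign-flip permutation test, p = 0.375; adjusted p = 0.5), which is within the spread between replicates. Median peak width was 399, 409, 418 and 404 bp for members and 396, 422, 432 and 399 bp for the comparison, a mean difference of -4.88 ± 10.3 bp (SD, n = 4; exact sign-flip permutation test, p = 0.5; adjusted p = 0.5). Of all peaks on chromosomes 4, 13 and 18, 80.5%, 88.2%, 86.1% and 89.4% overlapped a peak of another replicate, against 79.3%, 89.9%, 87.4% and 90.6%. The mean difference was -0.736 ± 1.34 percentage points (SD, n = 4; exact sign-flip permutation test, p = 0.5; adjusted p = 0.5). Single replicates weighed on these values. Without replicate 4 the difference in fold enrichment was 0.126 ± 0.0279, without replicate 1 it was 0.0926 and without replicate 3 it was 0.112. The difference in width was -2.17 bp without replicate 1 and -2.83 bp without replicate 3, and that in overlap -2.34, -1.25, -1.88 and -1.61 percentage points without replicates 1 to 4. A p that misses the threshold does not show that the sets are alike. Over peaks in recurrent regions, differences within a replicate stayed at or below 0.156 in fold enrichment and 14.5 bp in width. Those in overlap, over all peaks, stayed at or below 1.76 percentage points. Over all listed peaks, median fold enrichment was 7.82, 7.79, 7.76 and 6.79 on chromosomes 4, 13 and 18 in replicates 1 to 4. On chromosomes 17 and 19 it was 7.69, 7.53, 7.64 and 7.17, so the sets lay further apart in replicates 2 and 4.

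**Figure D4:**
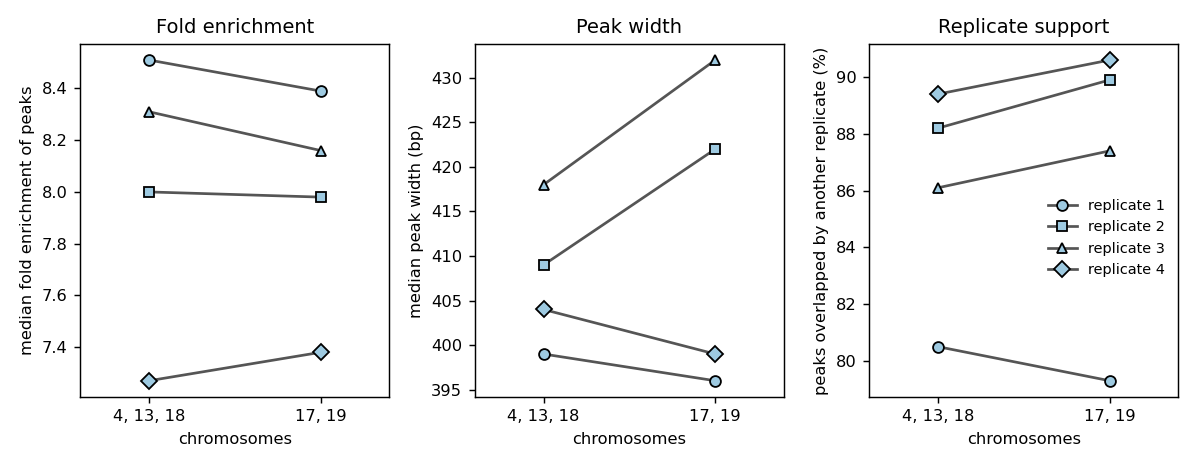
Median fold enrichment (left) and median width in bp (centre) of peaks in recurrent regions, and the share of peaks overlapped by another replicate in % (right), with 1 line per replicate from chromosomes 4, 13 and 18 to chromosomes 17 and 19. The vertical axes do not start at 0; the lines slope both ways in each panel, and replicates differ from each other by more than the chromosome sets do.

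Replicate support was also close. Among merged regions on chromosomes 4, 13 and 18, 65.4% of 647 were recurrent, compared with 65.7% of 1445 on chromosomes 17 and 19 and 63.0% in the whole series. Of the members, 137 had a peak of 2 replicates, 106 of 3 and 180 of all 4. The share in all 4 was 42.6% (exact 95% binomial interval 37.8 to 47.4%), against 43.1% on chromosome 17, 47.7% on chromosome 19, 45.5% (42.3 to 48.7%) on both together and 41.5% of all recurrent regions. The intervals of members and comparison overlap. Replicates 1 to 4 had a peak in 378, 328, 355 and 251 members. Replicate 4 was the one most often missing: of the 106 members in 3 replicates, 70 lacked replicate 4, 23 lacked replicate 2, 9 lacked replicate 3 and 4 lacked replicate 1.

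Support and strength went together in members and comparison alike. Median peak fold enrichment was 6.27, 7.07 and 9.98 in members with 2, 3 and 4 replicates, and 6.30, 7.07 and 9.56 on chromosomes 17 and 19. The merged members were 507 bp wide at the median, with a maximum of 1868 bp, and 14 reached 1000 bp. On chromosomes 17 and 19 the median was 538 bp and 48 regions reached 1000 bp. In all, members covered 239 kb, or 0.0622% of chromosomes 4, 13 and 18, and the comparison regions 562 kb, or 0.401%.

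The strongest member lay on chromosome 13, at chr13:45915169-45915859 (691 bp), with fold enrichments of 38.5, 39.5, 36.0 and 30.0 in replicates 1 to 4. Its mean of 36.0 ± 4.24 (SD, n = 4) was above the highest mean on chromosomes 17 and 19, 33.8. It lay in no window itself, 1.46 Mb after the window centre of CCDC122 and 0.870 Mb before that of LCP1. LCP1 encodes the actin-bundling protein L-plastin. On chromosome 4 the strongest was chr4:3956993-3958080, with 33.2, 31.3, 32.7 and 25.5 (mean 30.7 ± 3.54). The second, chr4:37687840-37688639, had 27.2, 32.5, 28.1 and 19.7 and closed the longest empty stretch of the chromosome. On chromosome 18 the strongest was chr18:77793657-77794573, near the chromosome's end, with 32.8, 27.3, 25.3 and 21.2 (mean 26.6 ± 4.80).

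Of the other 11 members among the 5 strongest of each chromosome, 5 lay in neighbouring groups. On chromosome 13, chr13:111567253-111568229 (22.8 ± 2.05) and chr13:111367608-111368545 (16.6 ± 1.32) both followed the window of COL4A2-AS1, an antisense gene to a basement membrane collagen, by under 1 Mb. On chromosome 18, chr18:11980793-11981692 (19.6 ± 2.45), chr18:12377051-12377768 (17.3 ± 2.53) and chr18:12947588-12948677 (16.9 ± 4.80) lay within a single megabase. The remaining 6 lay apart from each other, with means of 16.5 to 23.1. Of these, chr13:45151248-45152093 (18.3 ± 2.80) neighboured the strongest member of all. It lay 0.697 Mb after the window centre of CCDC122, and the strongest member 1.46 Mb after it. None of the 15 strongest lay in a window of the gene list, which does not hold every gene. Over members in all 4 replicates, the median of the mean fold enrichment was 10.1, and that of chromosomes 17 and 19 was 9.91.

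Of the 423 members, 42 overlapped a window of the study's list, and 6.92% of all recurrent regions did so. The summit was within 250 bp of the window centre, the gene start, in 26 of the 42, compared with 25 of 48 on chromosomes 17 and 19 and 274 of 473 over all chromosomes. Of the 116 windows on these chromosomes, all of which had a peak of some replicate by the way they were chosen, 62 had a peak of 1 replicate only, 19 of 2, 25 of 3 and 10 of all 4. Thus 54 (46.6%) held a recurrent region, compared with 48.7% of all windows in the list.

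Windows were overlapped by 8 members with a peak in all 4 replicates, with mean fold enrichments from 6.97 to 14.4. Of these, the members at RPLP1P13 and AL136218.1 only reached into the window, with summits 2198 and 2293 bp from its centre and so outside it. The member at ATP8B1, a flippase that moves phospholipids across membranes, had fold enrichments of 15.6, 17.2, 16.2 and 8.73 (14.4 ± 3.85), lowest in replicate 4. At OSBPL1A, which encodes an oxysterol-binding protein, the values were 9.29, 17, 10.3 and 9.79 (11.6 ± 3.63), with replicate 2 far above the others. FECH encodes ferrochelatase, which inserts iron into haem, and its member had 12.2, 6.12, 18.6 and 8.05 (11.2 ± 5.53), the widest spread of these. The members at ATP8B1 and FECH lay 0.216 Mb apart. At NBEA, for the neuronal membrane-trafficking protein neurobeachin, values were 5.13, 8.32, 9.04 and 5.37 (6.97 ± 2.00).

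Among 8 cytoskeleton and adhesion genes with a window, 2 had a member. FHDC1, a formin that acts on actin and microtubules, was the only one in all 4 replicates, with 11.2, 9.13, 10.5 and 8.2 (9.76 ± 1.36) and a summit 36 bp from the window centre. LIMCH1, a regulator of non-muscle myosin, had 7.86, 6.21 and 8.50 and no peak in replicate 4. FAT1, LCP1, ANK2, DTNA, ARHGAP10 and DCLK2 had a peak of 1 replicate only.

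Of 5 developmental transcription factors, 2 had a member and none was in all 4 replicates. ZIC2, a zinc-finger factor of forebrain development, had 6.74, 5.44 and 5.43 and no peak in replicate 4. This region of 1340 bp was merged from 4 overlapping peaks, none of them wider than 547 bp. A second member in the ZIC2 window had 8.51 in replicate 1 and 6.01 in replicate 3. TCF4, a basic helix-loop-helix factor, had peaks of replicates 1 and 3 with 6.30 and 5.99. GATA6, NKX6-1 and SMAD9 had a peak of a single replicate, between 3.99 and 5.24.

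The windows of 5 of 10 signalling genes held a member, but on 3 regions only, since MAPK10 shares its region with PTPN13, and ALPK1 shares its with TIFA. The region of MAPK10, the stress kinase JNK3, and of PTPN13, a tyrosine phosphatase, had 8.51, 6.14 and 5.98 in replicates 1 to 3. The member at STIM2 had 6.91, 5.44 and 9.29 in the same replicates. The region of ALPK1, an innate immune kinase, and TIFA, its adaptor, had 5.24 in replicate 1 and 7.47 in replicate 3. No signalling window had a peak in replicate 4. This depends on the window edges, since members with a peak in all 4 replicates lay just outside the windows of STIM2 and MAML3. That at STIM2, 0.00281 Mb after the window centre, had 7.92, 9.14, 6.67 and 7.11 in replicates 1 to 4. That at MAML3, 0.00274 Mb before the window centre, had 7.91, 7.92, 9.04 and 6.78. Within their windows, FGF9, GAS6, SOCS6, RASA3 and MAML3 each had a peak of 1 replicate.

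Of 4 ubiquitin ligases, TRIM13 and RNF152 had a member in 3 replicates, TRIM13 without replicate 1 and RNF152 without replicate 4, and HERC5 and SH3RF1 a peak of replicate 3 only. Of 10 pseudogene and repeat windows 4 held a member, on 3 regions. The ribosomal protein pseudogene RPLP1P13 had 11.8, 15.5, 12.7 and 12.7 (13.2 ± 1.59), and MTND6P16, a pseudogene of a mitochondrial gene, had 7.23, 7.84, 7.61 and 7.44 (7.53 ± 0.257). The summit lay 2198 bp from the centre of the RPLP1P13 window and 738 bp from that of MTND6P16. Of 5 small RNA windows 3 held a member, and SCARNA17 and SCARNA18, small RNAs of Cajal bodies, share 1 region.

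A group of members with low fold enrichment stood apart from the rest. In 17 of 423 members (4.02%) the highest fold enrichment of any replicate was under 4, a limit chosen after the values had been seen, compared with 4 of 950 (0.421%) on chromosomes 17 and 19 and 114 of 6835 (1.67%) in the whole series. There were 12 on chromosome 4, 0 on chromosome 13 and 5 on chromosome 18. On chromosome 4, 11 lay between 49093851 and 49659767 and made up the crowded megabase at 49 Mb, and 1 lay at chr4:68265423-68266008. On chromosome 18, 3 lay between 107954 and 112499 and 2 between 18516051 and 18520326. As background, the chromosome 4 cluster and the pair at 18.5 Mb border the centromeres, although no centromere annotation was used.

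These members were not weakly supported. Their highest −log10 q had a median of 18 over the 10 with a peak in all 4 replicates, against 21.1 over the other 170 members in all 4. The widest, chr18:18518587-18520326 (1740 bp), had fold enrichments of 3.12, 3.09, 2.98 and 3.74 and a highest −log10 q of 54.1. At chr4:49150933-49151915 the values were 2.41, 3.11, 2.72 and 3.49. At chr4:49156206-49157148 they were 2.07, 2.69, 2.33 and 3.70. Replicate 4 was the highest in all 3.

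The place of replicate 4 among the replicates differed in this group. Of its 10 members in all 4 replicates, replicate 4 was highest in 8 and lowest in 0, while of the other 170 it was highest in 8 and lowest in 99. Median fold enrichment in replicates 1 to 4 was 2.43, 2.71, 2.35 and 2.99 in the group and 11.8, 10.3, 11.2 and 8.14 in the others. Without the group, 406 members remained, and the share with a neighbour within 10 kb was 12.1%.

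**Figure D5:**
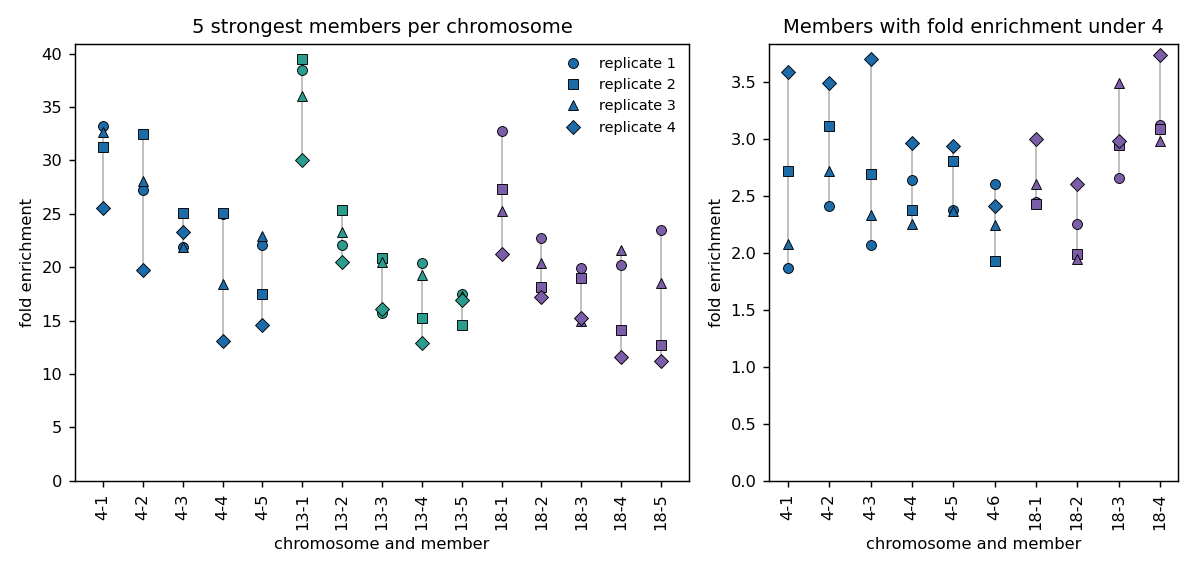
Fold enrichment in each replicate (symbols; grey lines join the lowest and highest) of the 5 strongest members per chromosome (left) and of the 10 members in all 4 replicates whose highest fold enrichment is under 4 (right), labelled by chromosome and serial number. Replicate 4 is mostly the lowest point on the left and the highest in 8 of 10 on the right.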

How the data were processed

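C4-2 cells were profiled by BG4 ChIP-seq in 4 replicates. The authors' methods name Bowtie2 for alignment and MACS2 for peak calling. The submitters' processing notes name bcl2fastq 1.8.4, Bowtie2 2.2.5, SAMtools 1.11, MACS2 2.1.1 and hg19, and the methods name hg38. The last peak on chromosome 1 ends at 249201060, a position that hg38 lacks, so positions were read as GRCh37. The authors deposited 1 peak list per replicate, called per replicate, with a fold enrichment, the ratio of summit signal to local background. For each peak the deposited p-value and q-value are written as −log10. The deposited score was not used. How the input served in peak calling is not given in the sources used here.

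Peaks were merged, counted and compared per replicate with an exact two-sided sign-flip permutation test on the within-replicate difference or log2 ratio, adjusted by Benjamini-Hochberg over 6 tests. Binomial intervals are exact at 95%. No count of reads is in the lists, so depth is unknown. Gene counts, gene order and promoter sequences came from RefSeq on GRCh38, without converting positions. The promoter table holds no chromosome 8. Regions named are the 5 strongest members per chromosome with a peak in all 4 replicates, those beside the longest empty stretches and those in the fullest megabases. Genes named are those whose window holds a member with a peak in all 4 replicates, and those of 6 gene lists. Members with fold enrichment under 4 were chosen after their values were seen. The members and gene lists were chosen with earlier results of these data known. The alternatives were a leave-one-out over replicates, stricter peaks, other support, overlap, distance and length rules, means, −log10 q, and, added after seeing the data, protein-coding genes and the removal of low-fold regions. Counting was tested on simulated data with 2000 sites, and 8 of 8 quantities were recovered. Analysis ran in Python 3.11.15 with scipy 1.17.1, pandas 2.3.3, numpy 2.4.6 and, for plots, matplotlib 3.10.9.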

Additional observations from a re-analysis of the deposited data

Results flagged for a closer look

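Of 52 sets of 4 replicate values, 4 had a replicate far from the others, by Dixon's test on the gap to the nearest value divided by the range, where chance gives about 1 in 20. The share of peaks on chromosome 18 that overlapped another replicate was 79.5% in replicate 1 and 88.0%, 88.8% and 89.2% in replicates 2, 3 and 4, a gap of 0.876 of the range. The member at OSBPL1A had a fold enrichment of 17 in replicate 2 and 9.29, 10.3 and 9.79 in replicates 1, 3 and 4, a gap of 0.869. The longest empty stretch of chromosome 13 was 11.9 Mb in replicate 3 and 15.1 Mb in each other replicate, a gap of 1.00 of the range at the precision given. That of chromosome 18 was 12.8 Mb in replicate 4 and 9.14 Mb in each other replicate, again a gap of 1.00.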

How the results depend on the processing

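The ratio of peaks per Mb was 5.10 to 6.33 over its 8 alternatives, and that per gene start 1.95 to 2.22 over 8 alternatives and 1.21 per protein-coding gene. The difference in median fold enrichment changed sign in 3 of 12 alternatives: it was -0.0162 with peaks of a −log10 q of at least 4, -0.274 with the 3000 strongest peaks of each replicate, and -0.0570 with means over peaks. It was larger, 0.269 ± 0.200, with regions of at least 3 replicates (exact permutation test, p = 0.125, the smallest possible). With regions of all 4 replicates it was 0.280 ± 0.315 (exact permutation test, p = 0.250). With −log10 q in place of fold enrichment, the difference in medians was 0.295 ± 0.0939 (exact permutation test, p = 0.125, the smallest possible). With the 3000 strongest peaks the difference in overlap was 0.261 percentage points, there were 222 members, and 10.8% had a neighbour within 10 kb. With a peak required in all 4 replicates, 180 members were left and 10% had such a neighbour. With at least 3 replicates, 10.1% had one, and 62.9% of members were in all 4. Within 50 kb, 28.1% had a neighbour. Leaving out 1 replicate, 54.9% (without replicate 3) to 64.4% (without replicate 4) of members had a peak in all that remained, since fewer replicates were needed. The longest empty stretch was 24.8 Mb on chromosome 4 and 15.4 Mb on chromosome 18 between regions of all 4 replicates, and 11.1 Mb on chromosome 13 between merged regions of any replicate. The cause of the changes in sign was not tested. The difference in median width was below 0 in 10 of 10 alternatives, from -0.625 bp with regions of all 4 replicates to -17.6 ± 4.37 bp with the 3000 strongest peaks (exact permutation test, p = 0.125, the smallest possible). Unknown depth limits statements on absent peaks.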
